A study of Mus musculus with 4 samples.

Results

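The p53 pathway and the BCL2 family of apoptosis regulators were followed in B16-F10 cells, a mouse melanoma line, after the cells had been infused into zebrafish. The set comprised 36 of the 53465 genes in the count table: p53 (Trp53), its regulators, p53 target genes, BCL2 family genes and the apoptosome genes, chosen by name from knowledge of the pathway. Mdm4 was singled out because its level was much lower in the extravasated libraries, so its difference between groups is described without a test, and the remaining members were chosen with earlier results of the same comparison known. The 4 polyA RNA libraries formed 2 groups of 2: cells marked as having extravasated, and infused cells marked as not having done so, which are the study's control. All 4 came from fluorescent B16-F10 cells grown in IMDM with 10% FBS, and the labels name no allele or drug that differs between the groups. The growth text is the same for all 4 libraries: it speaks of cells that had left the circulation as clusters and were grown in vitro after their recovery from the fish. The grouping therefore rests on the extravasation field, and RNA of cells grown again in culture need not reflect their state in the fish. The labels name no separate cultures or fish, and the p-values reflect nothing but the spread among these libraries, which may be technical. A number in the sample titles, not explained by the labels, is the same within each group and differs between the groups. Whatever it stands for cannot be told apart from extravasation. In the plots the libraries are called not_extravasated_1, not_extravasated_2, extravasated_1 and extravasated_2.

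p53 is a transcription factor that is kept low in resting cells by Mdm2, a ubiquitin ligase, and by its relative Mdm4, which binds and blocks p53. Stress frees p53, which then switches on genes of cell cycle arrest, DNA repair and cell death, and Mdm2 itself, closing a feedback loop. Death is decided at the mitochondrion, where pro-survival BCL2 proteins hold back the pore formers Bax and Bak1 and BH3-only proteins release them, after which Apaf1 and caspase-9 form the apoptosome. In melanoma, p53 is often intact and restrained by other means, among them high MDM4 in human tumours and loss of the Cdkn2a locus.

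Library totals were 11705904 and 16430477 counts in non-extravasated libraries 1 and 2, and 13256522 and 19674733 in extravasated libraries 1 and 2. Mitochondrially encoded genes took 6.51 to 8.88% of counts. Levels are given as CPM, counts scaled to a common library size with TMM factors. The 8 melanocyte markers summed to 23927 to 30945 CPM, while the summed markers of blood cells, endothelium and epithelium stayed at or below 4.69 CPM in every library, with Ptprc, Adgre1, Itgam, Cdh5, Kdr, Tek, Epcam and Krt8 at 0. Fibroblast markers summed to 13.7 to 20.4 CPM. Of the 36 members, 30 passed the expression filter. In bulk RNA, fewer cells with a transcript and less transcript per cell cannot be told apart.

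Of the 29 tested members other than Mdm4, 5 were called higher in extravasated cells (Trp53, Bax, Bak1, Plk3 and Bad) and 6 lower (Trp53inp1, Rrm2b, Ddb2, Polk, Bcl2 and Apaf1) by edgeR's quasi-likelihood test at a Benjamini-Hochberg adjusted p under 0.05 over all 12320 genes tested. Over all tested genes 45.1% were called, 19.1% higher and 25.9% lower, so the members were called about as often as other genes, and since the set was drawn up with this comparison known, nothing is read from the count. With Mdm4 included, the median log2 fold change was -0.19 over the 30 members and -0.02 over all tested genes. The groups did not overlap for 18 of 30 members, against 76.3% of all tested genes. The 2 non-extravasated libraries differed widely for many p53 targets, and this spread is described first within each group of genes below.

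**Figure D1:**
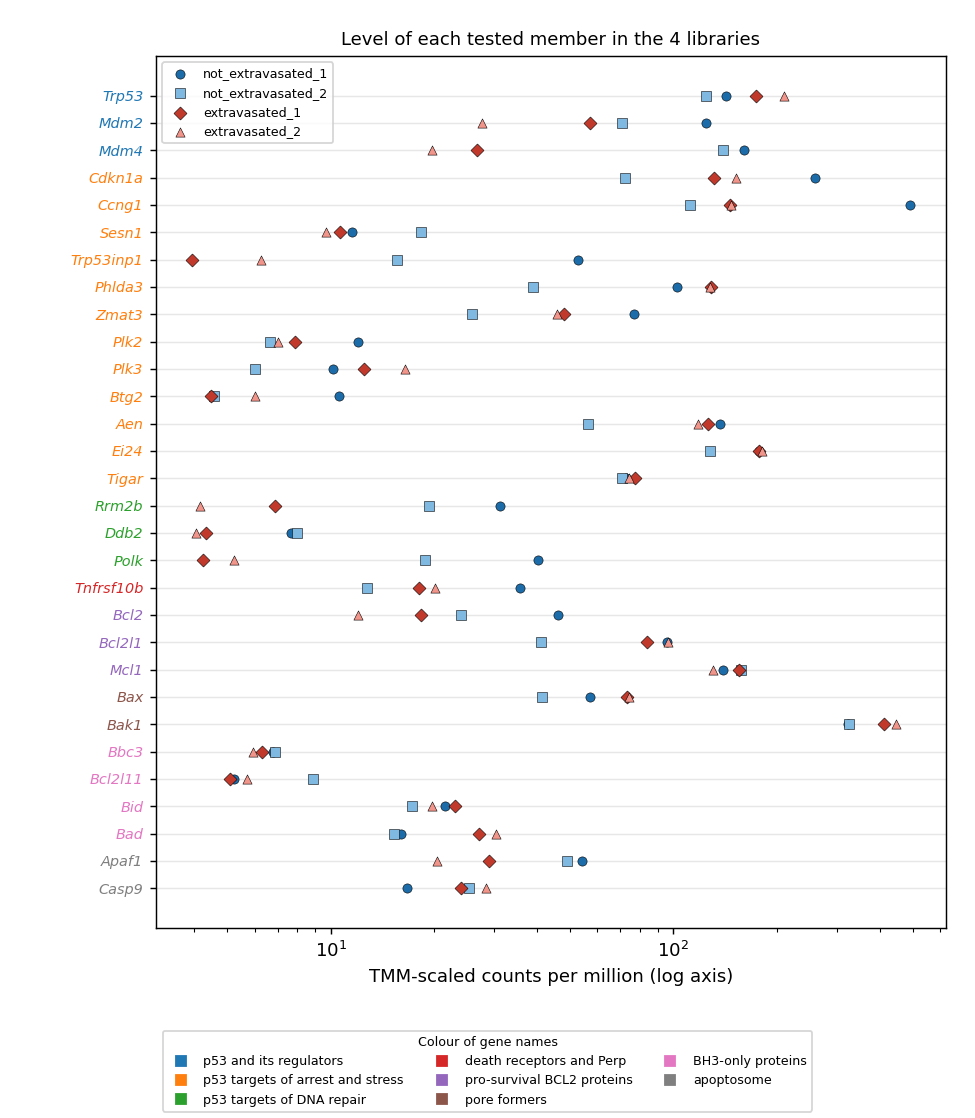
Level of the 30 tested members in each library, in TMM-scaled CPM on a log axis, with 1 point per library and gene names coloured by role. Mdm4 lies at 139 to 160.4 CPM in the non-extravasated and at 19.8 to 26.7 CPM in the extravasated libraries, whereas for Cdkn1a and Ccng1 both extravasated libraries lie between the 2 non-extravasated ones.

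Trp53 itself, which encodes p53, was at 142 and 124 CPM in the non-extravasated and at 174 and 209.9 CPM in the extravasated libraries. Both extravasated libraries were above both others. Trp53 rose (log2 fold change 0.53 ± 0.144, SE; edgeR quasi-likelihood test, adjusted p = 0.0208), a call that ended without extravasated library 2 (0.43, adjusted p = 0.127) and after correction for transcript GC content and length (0.14, adjusted p = 0.502). Mdm4, which blocks p53 and is on GRCm38 chromosome 1, was at 160.4 and 139 CPM in the non-extravasated against 26.7 and 19.8 CPM in the extravasated libraries. The 2 libraries of each group were close together and the groups far apart, with a log2 difference of -2.69, or 6.47-fold. The difference was -2.45 to -2.82 with any 1 library left out, and -1.47 after correction for the GC content (43.3%) and length (7105 nucleotides) of its transcript. Per kilobase of transcript, Mdm4 was at 21.1 CPM in non-extravasated and 3.27 CPM in extravasated cells.

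Mdm2, the ubiquitin ligase that degrades p53 and is itself a p53 target, was at 124 and 70.8 CPM in the non-extravasated and at 57.1 and 27.6 CPM in the extravasated libraries. All 4 values were apart from each other, and Mdm2 was the only tested member at least 2-fold apart between the extravasated libraries, against 3.35% of all tested genes. Its log2 fold change of -1.21 ± 0.424 (SE) did not pass the test (edgeR, adjusted p = 0.0671), but passed without non-extravasated library 2 (-1.56, adjusted p = 0.000453) and without extravasated library 1 (-1.71, adjusted p = 0.0386). Per kilobase of transcript, Mdm2 was above Mdm4 in both groups, at 31.5 CPM in non-extravasated and 13.7 CPM in extravasated cells. Cdkn2a, which encodes the Mdm2 inhibitor p19Arf and the cell cycle inhibitor p16Ink4a, had no read in any library, which allows up to 0.158 to 0.26 CPM per library (3 counts, counting error only). The B16 line is known to carry a deletion of Cdkn2a.

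Many p53 targets of arrest and stress differed between the 2 non-extravasated libraries. Non-extravasated library 1 was at least 2-fold above library 2 for 7 of the 12 tested genes of this group and for 10 of the 30 tested members, against 4.89% of all tested genes. The reverse, at least 2-fold higher in library 2, held for none of the 30 members and for 1.78% of all tested genes. The median log2 ratio of library 1 to library 2 was 1.25 over these 12 genes and 0.07 over all tested genes. With GC and length correction the 2-fold count was 9 of 30 members, against 3.17% of all tested genes. This compares 2 libraries and not 2 conditions, so it has no test, and the choice of members had noted that these libraries may differ. Library 1 was also the one with the fewest counts, and its share of mitochondrial counts was 8.21%, against 7.12% in library 2. Its sample title ends in C, as does that of extravasated library 2, where the mitochondrial share was 8.88%, against 6.51% in extravasated library 1. The part of depth, mitochondrial share and title suffix in the difference between the non-extravasated libraries was not tested.

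Ccng1 (cyclin G1, a feedback regulator of p53 and one of its most direct targets) showed the widest gap, with 489 CPM in non-extravasated library 1, 112 in library 2, and 146 and 147 CPM in the extravasated libraries. Cdkn1a, which encodes the cyclin-dependent kinase inhibitor p21, was at 259 and 72.3 CPM in the non-extravasated and at 132 and 153 CPM in the extravasated libraries. In both genes the extravasated libraries resembled each other and fell between the non-extravasated ones. Zmat3, an RNA-binding zinc finger protein, had 76.6, 25.9, 47.9 and 45.7 CPM in the same order of libraries. Aen, a nuclease of apoptotic cells, had 136, 56.2, 126 and 118 CPM, and Plk2, a polo-like kinase, had 11.98, 6.65, 7.87 and 7.003 CPM. These 5 genes and the receptor gene Tnfrsf10b had both extravasated libraries between non-extravasated library 2 and a higher library 1, an order found in 3.4% of all tested genes.

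**Figure D2:**
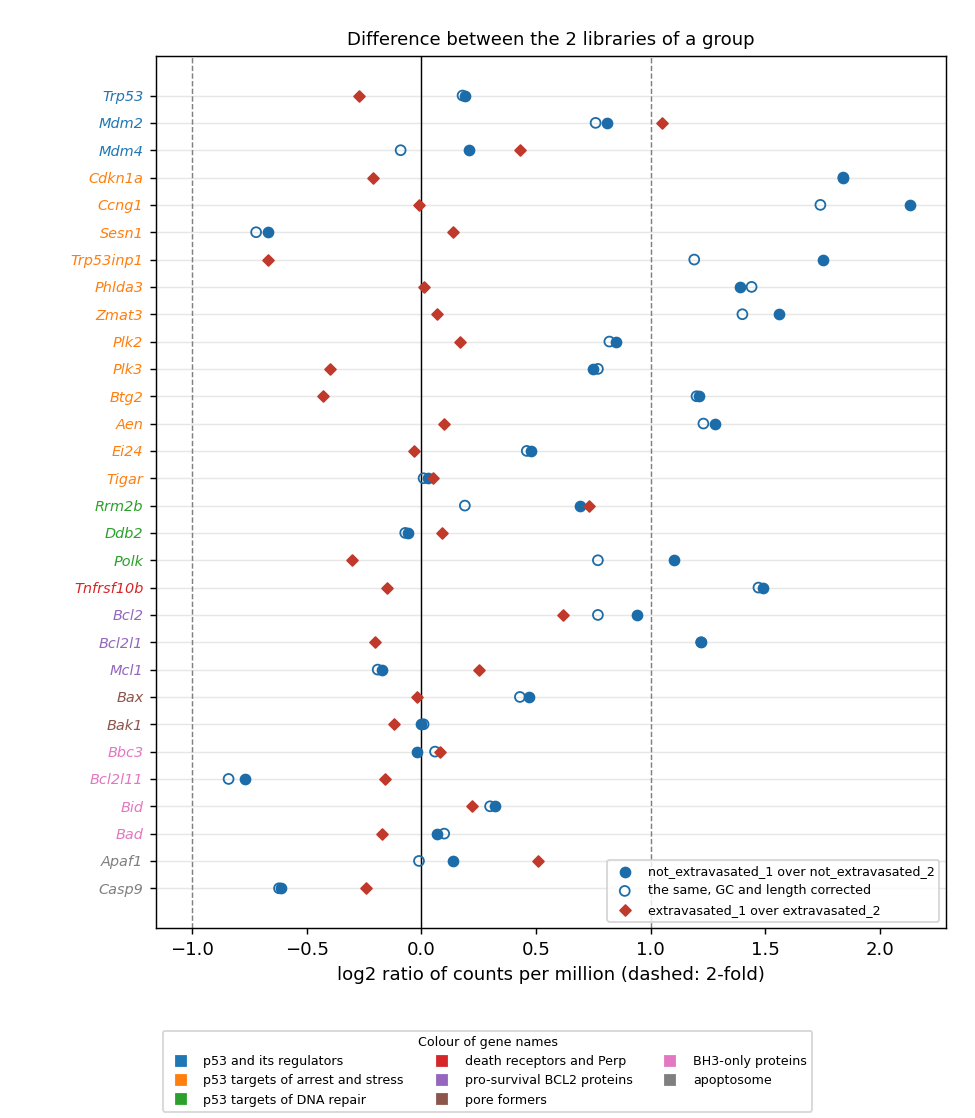
Log2 ratio of CPM between the 2 libraries of each group for the 30 tested members. Filled circles show not_extravasated_1 over not_extravasated_2, open circles the same ratio after GC and length correction, and diamonds extravasated_1 over extravasated_2. Ccng1 (2.13), Cdkn1a (1.84), Trp53inp1 (1.75) and Zmat3 (1.56) have the highest ratios within the non-extravasated group, while Mdm2 alone among the members passes 2-fold within the extravasated group.

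None of these genes passed the test between groups. For each of them the direction depended on the non-extravasated library used, which follows from the order of their libraries. Aen was at 1.11 without non-extravasated library 1 and at -0.16 without library 2, and Plk2 at 0.16 and -0.69. With all 4 libraries, GC and length correction also turned the value of Ccng1 (to 0.25) and Zmat3 (to 0.63), neither of them called. Cdkn1a differed by -0.22 ± 0.602 on the log2 scale (SE; edgeR quasi-likelihood, adjusted p = 0.795) with all libraries, 0.98 without non-extravasated library 1 (adjusted p = 2.27e-07) and -0.86 without library 2 (adjusted p = 1.39e-07). Ccng1 moved from -1.03 ± 0.707 (SE; adjusted p = 0.298) to 0.39 (adjusted p = 0.0365) and -1.73 (adjusted p = 1.56e-30) in the same fits. Zmat3 went from -0.12 to 0.85 and -0.71, and Tnfrsf10b from -0.33 to 0.59 and -0.89, each called in both of the reduced fits. These 4 of 30 members were called higher without library 1 and lower without library 2, as were 0.185% of the genes tested in both fits; the opposite pattern held for no member and for 0.0723% of genes. With a lone non-extravasated library the spread comes from the extravasated libraries and the lone library is assumed to vary like them. Without library 1, 13 members were called higher and 9 lower, against 21.5% and 27.3% of all tested genes (48.8% in either direction), and Mdm4 is counted here and in the next fit. Without library 2, 4 were called higher and 14 lower, against 19.4% and 28.1% (47.5% in either direction).

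**Figure D3:**
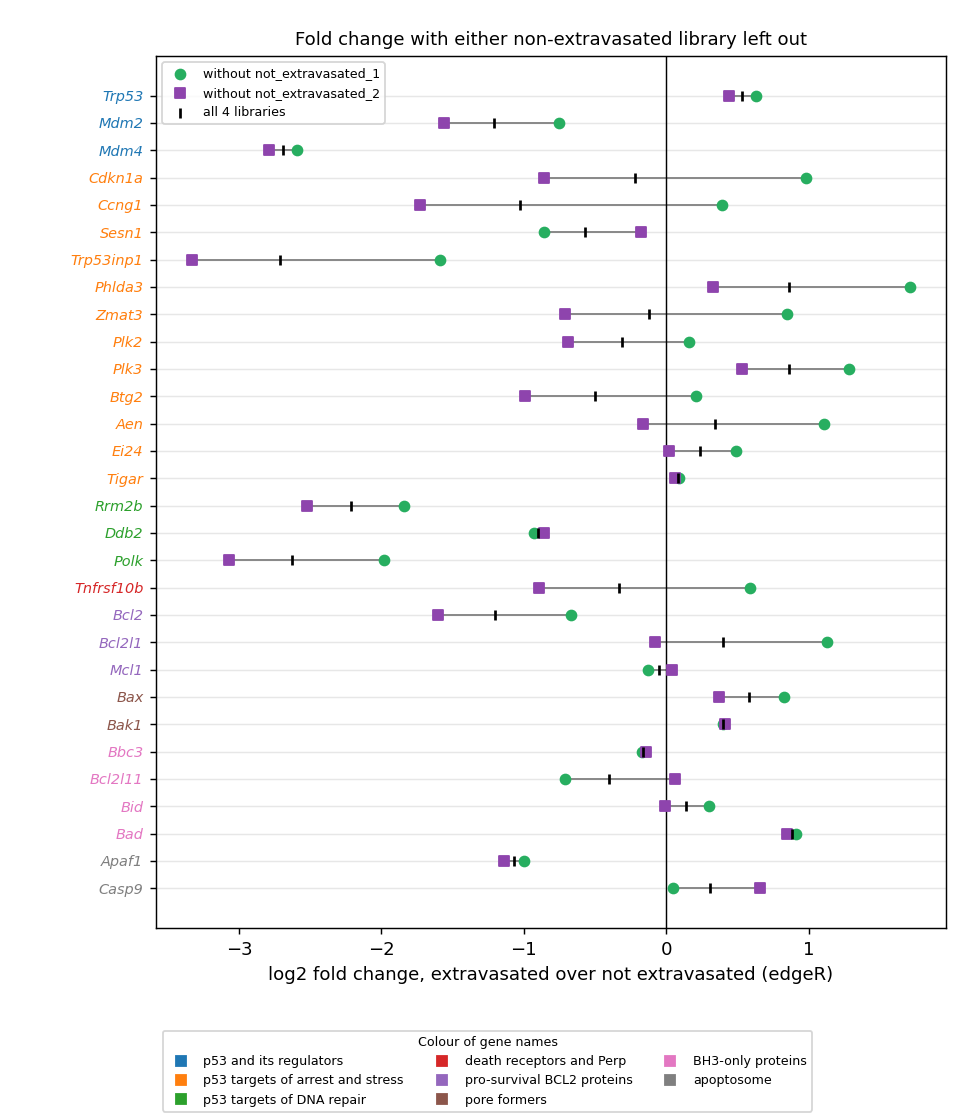
Log2 fold change of extravasated over non-extravasated cells (edgeR) for the 30 tested members with all 4 libraries (bars), without not_extravasated_1 (circles) and without not_extravasated_2 (squares). For Cdkn1a, Ccng1, Zmat3 and Tnfrsf10b the circle and the square lie on opposite sides of 0 and both were called, while Mdm4, Bak1, Bad and Apaf1 hardly move.

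The promoters of 4 targets are shown because p53 acts on such genes through DNA, at paired copies of a consensus decamer. The 4 were chosen by name, and each held the decamer. Mdm2 was 1.76-fold apart between the non-extravasated libraries, under the 2-fold mark. Polk passed that mark and held a decamer but is not shown, and Phlda3, Btg2 and Bcl2l1 passed it with no decamer in their windows. Windows of 300 bases, from 250 before to 50 after an annotated start, were taken from RefSeq (GRCm38.p6) and matched by symbol for 29 of the 36 members. The p53 consensus decamer, which reads as the same consensus on both strands, was found in a window of 9 of these 29 members (Trp53, Mdm2, Cdkn1a, Ccng1, Bax, Sesn1, Aen, Ei24 and Polk), against 9.55% of the 27025 genes with a window. Among members at least 2-fold higher in non-extravasated library 1, 4 of 7 with a window held one, and among the other tested members, 5 of 18. The former are mostly p53 targets and the latter include many BCL2 family genes, so nothing is read from these counts. Whether p53 had a part in the difference between the libraries was not tested. A match is a run of letters and not a measured binding site, and many p53 sites lie outside such windows. The 4 windows below run 5′ to 3′ on the strand of the gene, with the decamers in capitals. The Cdkn1a window lay at the more upstream of its annotated starts (chr17:29090729-29091028, plus strand). It held 2 exact decamers 12 bases apart, beginning 73 and 51 bases before the start, while 0.359% of all windows held at least 2. The bases right after the later decamer, tgacatgttc, miss the consensus only at their first base. The exact search therefore did not mark this adjoining copy. The decamer began 185 bases before the start of Ccng1 (chr11:40755237-40755536, minus strand), 186 bases before that of Mdm2 (chr10:117710709-117711008, minus strand) and at base 11 after the more upstream start of Aen (chr7:78895677-78895976, plus strand).
Cdkn1a: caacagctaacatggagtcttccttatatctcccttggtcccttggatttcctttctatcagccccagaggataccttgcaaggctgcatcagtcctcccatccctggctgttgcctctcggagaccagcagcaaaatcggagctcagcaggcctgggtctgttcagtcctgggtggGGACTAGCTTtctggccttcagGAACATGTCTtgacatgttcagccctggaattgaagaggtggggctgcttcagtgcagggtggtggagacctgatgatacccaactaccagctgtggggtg
Ccng1: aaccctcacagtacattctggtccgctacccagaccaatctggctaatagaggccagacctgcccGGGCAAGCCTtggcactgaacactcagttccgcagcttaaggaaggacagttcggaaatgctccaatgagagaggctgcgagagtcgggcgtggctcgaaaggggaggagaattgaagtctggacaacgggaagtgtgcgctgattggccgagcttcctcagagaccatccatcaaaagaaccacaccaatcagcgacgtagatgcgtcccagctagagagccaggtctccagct
Mdm2: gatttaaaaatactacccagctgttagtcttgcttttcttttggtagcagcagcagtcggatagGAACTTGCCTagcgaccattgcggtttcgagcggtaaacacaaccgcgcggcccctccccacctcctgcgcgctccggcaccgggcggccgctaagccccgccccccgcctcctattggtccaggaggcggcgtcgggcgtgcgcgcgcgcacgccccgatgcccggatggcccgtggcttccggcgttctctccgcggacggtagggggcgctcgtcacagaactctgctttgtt
Aen: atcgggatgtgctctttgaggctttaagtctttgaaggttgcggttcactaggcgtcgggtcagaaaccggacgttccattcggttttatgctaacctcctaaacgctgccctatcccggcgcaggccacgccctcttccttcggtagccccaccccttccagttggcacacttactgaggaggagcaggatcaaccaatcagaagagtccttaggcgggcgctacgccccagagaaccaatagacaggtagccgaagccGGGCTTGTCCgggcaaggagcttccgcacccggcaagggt

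The remaining arrest and stress targets split in their behaviour. Trp53inp1, a stress-induced partner of p53 that also acts in autophagy, was at 52.6 and 15.6 CPM in the non-extravasated and at 3.94 and 6.27 CPM in the extravasated libraries. The groups did not overlap, although the non-extravasated libraries were 3.37-fold apart. Trp53inp1 fell (log2 fold change -2.71 ± 0.634, SE; edgeR quasi-likelihood test, adjusted p = 0.0209), and the value was -1.59 without non-extravasated library 1, -3.33 without library 2 and -1.24 after GC and length correction (adjusted p = 0.108). It was not called without extravasated library 1 (-2.32) or 2 (-3.05), under RLE size factors (adjusted p = 0.0673) or with no expression filter (adjusted p = 0.24). Plk3, a polo-like kinase of the stress response, had 10.2 and 6.02 CPM in the non-extravasated and 12.5 and 16.5 CPM in the extravasated libraries, and rose with a log2 fold change of 0.86 ± 0.296 (SE; adjusted p = 0.0465). That call ended without non-extravasated library 2 (0.53), without extravasated library 1 (1.15) or 2 (0.68), and after correction (0.38).

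Phlda3, a pleckstrin homology protein that restrains Akt, was at 102 and 39.0 CPM in the non-extravasated and at 128 and 128 CPM in the extravasated libraries. Its groups did not overlap, yet the log2 fold change of 0.86 ± 0.433 (SE) did not pass (edgeR, adjusted p = 0.16) and was 1.71 without non-extravasated library 1, where it was called. Btg2, an antiproliferative protein, was at 4.47 to 10.6 CPM and Sesn1, a stress sensor upstream of mTORC1, at 9.69 to 18.4 CPM over the 4 libraries, neither called with all libraries. Sesn1 was the 1 tested target of this group with a lower level in non-extravasated library 1 (11.5 CPM) than in library 2 (18.4 CPM). Ei24, a membrane protein of the endoplasmic reticulum, was at 128 to 182 CPM. Tigar, a phosphatase that lowers glycolytic flux, was the steadiest target, at 70.9 to 77.1 CPM in all 4 libraries, with a log2 fold change of 0.08 ± 0.126 (SE; adjusted p = 0.65). Gdf15, a secreted stress cytokine, had at most 4 counts in any library.

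All 3 members grouped as repair targets were lower in extravasated cells, where 25.9% of all tested genes were called lower. The grouping was made after values were seen, so nothing is read from this count. Among p53 targets outside the members, the repair gene Ercc5 was also lower (log2 fold change -0.95). The repair gene Xpc was not, at 47.7 and 51.6 CPM in the non-extravasated and 65.4 and 63.3 CPM in the extravasated libraries (0.37, not called). Rrm2b, the p53-induced subunit of ribonucleotide reductase, was at 31.3 and 19.4 CPM in the non-extravasated and at 6.89 and 4.16 CPM in the extravasated libraries. Polk, a translesion DNA polymerase, was at 40.4 and 18.8 against 4.24 and 5.21 CPM. Ddb2, which recognises ultraviolet damage, was at 7.64 and 7.99 against 4.32 and 4.05 CPM. In each of these 3 members both extravasated libraries were below both others, and the groups did not overlap for 76.3% of all tested genes. Rrm2b fell (log2 fold change -2.21 ± 0.336, SE; edgeR quasi-likelihood test, adjusted p = 0.00334), was called with any 1 library left out, and was not called after GC and length correction (-0.87, adjusted p = 0.0752). Polk fell with -2.63 ± 0.401 (SE; adjusted p = 0.00456) and was called after correction (-1.40, adjusted p = 0.0213), but not without extravasated library 2 (-2.74, adjusted p = 0.0528). Ddb2 fell with -0.90 ± 0.254 (SE; adjusted p = 0.0232) and was called after correction (-1.04, adjusted p = 0.0285), though not when the longest transcript was used for it (-0.59, adjusted p = 0.131), nor without extravasated library 1 (-0.85) or 2 (-0.82).

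Of the death receptor genes and Perp, only Tnfrsf10b, the mouse receptor for Trail, passed the expression filter, at 35.7 and 12.7 CPM in the non-extravasated and at 18.1 and 20.1 CPM in the extravasated libraries. Fas, the receptor for Fas ligand, had 2 counts in non-extravasated library 2 and none in the other libraries, and Eda2r, the receptor for an ectodysplasin isoform, had 4 counts in extravasated library 2 and none elsewhere. Perp, a membrane protein of desmosomes and apoptosis, had 3 to 9 counts per library. At these counts no difference between groups was detectable.

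Among the BCL2 proteins that guard survival, Bcl2 was lower in extravasated cells, Bcl2l1 (Bcl-xL) differed between the non-extravasated libraries, and Mcl1 was steady. Bcl2 was at 46.0 and 24.0 CPM in the non-extravasated and at 18.4 and 12 CPM in the extravasated libraries. It fell (log2 fold change -1.20 ± 0.368, SE; edgeR quasi-likelihood test, adjusted p = 0.0424), a call that ended without extravasated library 1 (-1.43) or 2 (-0.87), with a term for whether the sample title ends in C (-1.16, adjusted p = 0.0948) and after correction (-0.34, adjusted p = 0.433), and the value was -0.67 without non-extravasated library 1. Bcl2l1 was at 95.9 and 41.1 against 83.8 and 96.5 CPM, so that non-extravasated library 2 alone was low. Its log2 fold change of 0.40 ± 0.39 (SE; adjusted p = 0.443) did not pass, and was 1.13 without non-extravasated library 1, where it was called. Mcl1 ranged from 131 to 157 CPM over the 4 libraries (log2 fold change -0.05 ± 0.14, SE; adjusted p = 0.78).

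The pore formers Bax and Bak1 were both higher in extravasated cells by a modest amount. Bax was at 57.1 and 41.3 CPM in the non-extravasated and at 73.1 and 74.2 CPM in the extravasated libraries, and Bak1 at 324.0 and 324.2 against 411 and 447 CPM. Neither gene had overlapping groups, and the non-extravasated values of Bak1 were nearly equal. Bax rose (log2 fold change 0.58 ± 0.175, SE; edgeR quasi-likelihood test, adjusted p = 0.0291) and Bak1 with 0.40 ± 0.115 (SE; adjusted p = 0.0237). After GC and length correction their log2 fold changes were -0.09 and -0.03 and neither was called. The Bax call ended without non-extravasated library 2 (0.37) and without extravasated library 1 (0.70) or 2 (0.62), and the Bak1 call without extravasated library 2 (0.38). Per kilobase of transcript the mean level of Bak1 was the highest of the members' group means, at 136 CPM in non-extravasated and 179.6 CPM in extravasated cells.

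Of the 5 BH3-only genes, which encode the triggers that neutralise pro-survival BCL2 proteins, Bad alone was called. Bad, which is controlled by growth factor signalling, was at 16.1 and 15.3 CPM in the non-extravasated and at 27.1 and 30.4 CPM in the extravasated libraries. The groups were well apart and each was tight. It rose (log2 fold change 0.88 ± 0.172, SE; edgeR quasi-likelihood test, adjusted p = 0.00612), a call that ended without extravasated library 2 (0.83, adjusted p = 0.0624) and after correction (0.27, adjusted p = 0.261). The p53 target Bbc3, which encodes Puma, was low and even, at 6.77 and 6.89 against 6.28 and 5.95 CPM (log2 fold change -0.16 ± 0.244, SE; adjusted p = 0.62). After GC and length correction Bbc3 was at -0.76 and not called (edgeR quasi-likelihood test, adjusted p = 0.0638). Unlike Cdkn1a and Ccng1, Bbc3 showed no gap between the non-extravasated libraries, with a log2 ratio of -0.02. Pmaip1, which encodes Noxa and is also a p53 target, had no read in any library. Bcl2l11, which encodes Bim, was at 5.07 to 8.85 CPM, and Bid, which links death receptors to the mitochondrion, at 17.3 to 23.0 CPM, and neither was called.

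The apoptosome genes differed. Apaf1, the scaffold that is assembled by cytochrome c, was at 54.2 and 49.0 CPM in the non-extravasated and at 28.9 and 20.4 CPM in the extravasated libraries. It fell (log2 fold change -1.07 ± 0.195, SE; edgeR quasi-likelihood test, adjusted p = 0.00495), was called with any 1 library left out, and was not called after correction (-0.23, adjusted p = 0.325). Casp9, the initiator caspase, ranged from 16.7 to 28.4 CPM with overlapping groups (0.31 ± 0.23, SE; adjusted p = 0.299).

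The direction of the called members followed the base composition of their transcripts. Bbc3, not called, had the highest GC content of the tested members (65.2%) and a log2 fold change of -0.16. The 5 members called higher had transcripts of 54.1 to 61.3% GC and 867 to 2387 nucleotides, and the 7 lower ones, Mdm4 among them, had 38.8 to 50.7% GC and 1557 to 7191 nucleotides. Across the 30 members the Spearman rho of the log2 fold change with GC content was 0.87, and with transcript length -0.62; across all tested genes with known transcripts the values were 0.72 and -0.37. These are descriptions over genes that share the same 4 libraries. After correction for GC content and length, none of the 29 members other than Mdm4 was called higher and 2 were called lower (Polk and Ddb2), while 14.0% of all tested genes were called, 8.24% higher and 5.8% lower. At an unadjusted p under 0.05 in that fit, edgeR had 1 member higher and 6 lower, Mdm4 included. The share over all tested genes at this looser threshold is not given, so nothing is read from these counts. No other tool was run on corrected values. The corrected median over the members was -0.02, against 0.04 over all tested genes. For the log2 ratio of the 2 non-extravasated libraries, rho with GC content was -0.19 across members and -0.24 across all tested genes. With correction this ratio was 1.84 for Cdkn1a both before and after, but went from 1.75 to 1.19 for Trp53inp1, from 2.13 to 1.74 for Ccng1, from 1.10 to 0.77 for Polk and from 0.69 to 0.19 for Rrm2b. Its median over the 30 members went from 0.58 to 0.44.

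**Figure D4:**
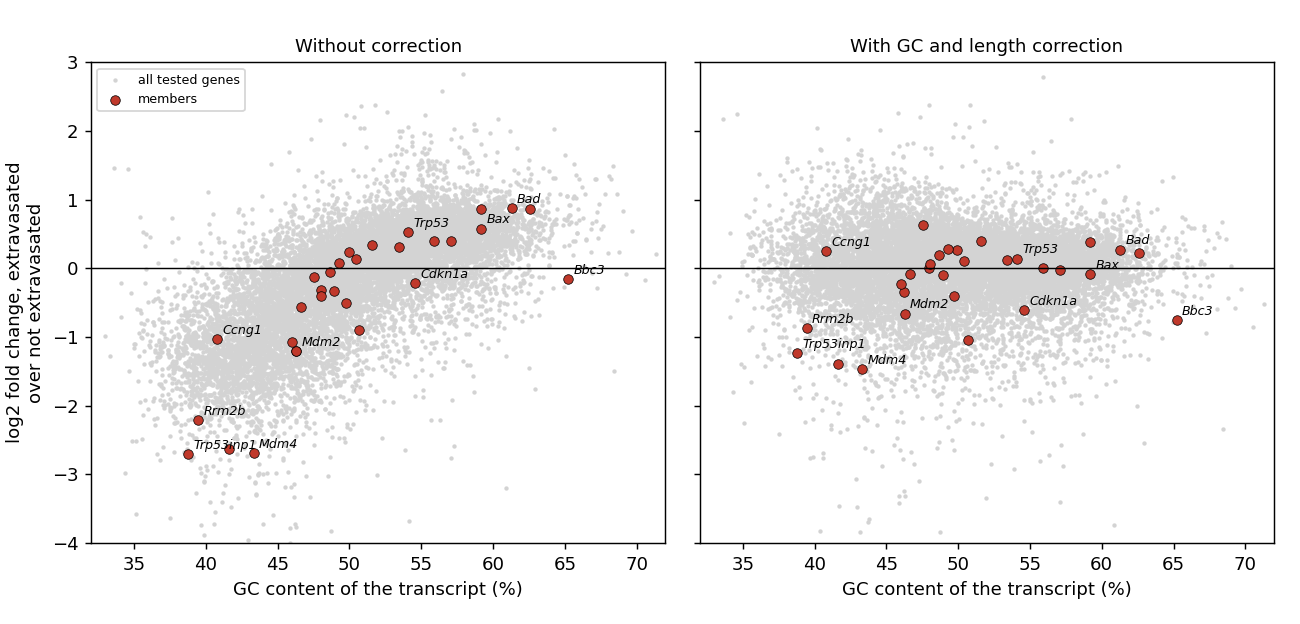
Log2 fold change of extravasated over non-extravasated cells against the GC content of the transcript, without (left) and with (right) GC and length correction, for all tested genes (grey) and the 30 tested members (red). Uncorrected values of called members run from Trp53inp1, at 38.8% GC and -2.71, to Bad, at 61.3% GC and 0.88, and after correction Mdm4 lies at -1.47 and Trp53 at 0.14. The vertical axis leaves out 20 tested genes on the left and 13 on the right.

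Genes of the pathway outside the member set were read from 5 lists. Of 27 tested further p53 targets, 3 rose (Steap3, Fdxr and Rps27l) and 2 fell (Ckap2 and Ercc5), with a median log2 fold change of 0.12. Over all tested genes 19.1% rose and 25.9% fell. Steap3, a metalloreductase, rose by 0.72 on the log2 scale, and Rps27l by 0.58, and both were called after correction (0.68 and 1.06). These targets also leaned to non-extravasated library 1: 23 of 27 were higher there than in library 2, against 58.8% of all tested genes, with a median log2 ratio of 0.46. At least 2-fold higher there were 6 of 27, against 4.89% of all tested genes. The reverse 2-fold difference held for Gls2 (1.04 against 2.20 CPM). The 6 were Tap1, which interferon also induces (9.89 against 2.31 CPM), Dcxr (25.3 against 9.26 CPM), Thbs1, Pvt1, Slc19a2 and Ephx1. In the lists of caspases and of further BCL2 family genes, none of 24 and none of 7 tested genes had such a 2-fold excess. With 4.89% over all tested genes, lists this short would hold few or none, so nothing is read from this. Bnip3 of the BCL2 family list went the other way (33.3 CPM in library 1 against 128 CPM in library 2).

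Of 26 tested p53 regulators, 12 fell and 1, Rpl11, rose, where 25.9% of all tested genes fell and 19.1% rose; after correction 3 were called lower and 2 higher. Huwe1, a ubiquitin ligase for p53, fell with a log2 fold change of -1.50 (edgeR, adjusted p = 0.00104), the acetyltransferase gene Ep300 with -1.08 (adjusted p = 0.00222), and Trim24, another p53 ligase, with -0.82 (adjusted p = 0.0036); all 3 were called after correction (-0.51, -0.69 and -0.56). The 2 called higher only in the corrected fit were Cop1, a ubiquitin ligase for p53 (-0.09 before and 1.08 after), and Rpl5, a ribosomal protein that binds Mdm2 (-0.05 before and 0.88 after). Chek1, a checkpoint kinase, fell with -1.0 and was not called after correction (0.19). The damage kinases Atm and Atr fell with -1.69 and -1.66 before correction and was at -0.17 and -0.08 after it, and both were more than 2-fold higher in non-extravasated library 1 than in library 2. Rpl11, a ribosomal protein that binds Mdm2, rose with 0.56 and was at 0.09 after correction (adjusted p = 0.617). Reads from its near-identical copies may have been split by the counting, which was not tested. In the list of caspases and apoptosis machinery 4 of 24 rose and 8 fell, beside the same 19.1% and 25.9% over all genes, and 3 and 2 were called after correction, with Fadd, the adaptor of death receptors, at 0.82 and Cflar, its inhibitor, at -1.86; both were called after correction (0.82 and -0.81). Birc6, an inhibitor of apoptosis protein, fell with -1.92 (-0.62 after correction, still called), and Htra2, a mitochondrial protease, rose with 0.88 (0.38 after correction, not called). In the further BCL2 family, Bnip3l fell with -1.65, Bnip3 with -3.00 (33.3 and 128 CPM in the non-extravasated, 10.8 and 9.53 CPM in the extravasated libraries), and Bcl2l13 rose with 0.43, among 7 tested genes and beside the same shares over all genes. After correction Bcl2l13 was called (0.87), while Bnip3l (-0.61) and Bnip3 (-2.10) were not, and Bnip3 was not called without extravasated library 1 (adjusted p = 0.145) or 2 (adjusted p = 0.192). Bcl2l13 was not called without extravasated library 1 (adjusted p = 0.0615) or 2 (adjusted p = 0.0924). Of 12 cell cycle genes that p53 lowers through p21, 4 rose (Cdc20, E2f1, Foxm1 and Plk1) and 3 fell (Top2a, Mki67 and Ccna2), again beside 19.1% and 25.9% over all genes. None of these 7 was called after correction, and none of the 12 was at least 2-fold apart between the non-extravasated libraries. Over all tested genes 4.89% were at least 2-fold higher in library 1 and 1.78% in library 2.

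In the annotation 12 of the 36 members shared exon bases with another gene, 11 of them with a gene on the opposite strand. Bad shared 524 bases with Gpr137, Ddb2 652 with Acp2, Bid 628 with Bcl2l13 and Rrm2b 734 with an antisense RNA gene, and Bax shared 192 bases with the same-strand gene Gm45808. The library kit marks strand, but the strand setting of the counting was not given in the sources used here, so the levels of these members are uncertain to the extent of those reads.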

How the data were processed

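The authors deposited raw read counts per gene, whole numbers without normalization, for 4 libraries. Per the submitters' processing notes, the tools were bcl2fastq 2.18.0.12 and STAR 2.5.3a, with the GRCm38 build. Which counter, annotation release, strand setting and filters were used was not given in the sources used here. Library preparation used a stranded TruSeq mRNA kit, per the labels' protocols. Identifiers were matched to GENCODE M21 (53360 of 53465 without version).

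Genes were kept by filterByExpr (at least 10 counts in enough libraries, at least 15 in total) and scaled by TMM in edgeR 4.0.16 (R 4.3.3). The groups were compared over the whole table by the quasi-likelihood test, two-sided and with robust settings, at a Benjamini-Hochberg adjusted p under 0.05. Each standard error is the size of the log2 fold change divided by the square root of F. CPM are the deposited counts divided by effective library sizes. For the GC and length correction, each library's deviation of log2 CPM (prior count 2) was fitted by smooth terms for the APPRIS principal transcript's GC content and log2 length (mgcv 1.9.3, basis size 10), which entered as an offset; mitochondrial genes received none. Ratios between single libraries used CPM and a fold of 2. The fit was tested on simulated counts with known changes, whose spread followed the trend over all tested genes. Gaps within a group as wide as those of Cdkn1a and Ccng1 were not modelled, so the simulation does not bear on such genes.

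Alternatives were RLE factors, library totals, DESeq2 1.42.0, no filter, both corrections, the kind of title suffix as a term, and leaving out each library; the longest transcript and the corrected ratio between non-extravasated libraries were added after seeing the data. Members and lists were chosen with earlier results of these data known, and the role groups were assigned after values were seen. All members are named; from each further list, up to 4 called genes with the smallest adjusted p per direction could be named, and other list genes named were chosen after their values were seen. The libraries of a group differed by more than counting error (chi-square per degree of freedom 25.8 in the non-extravasated and 15.3 in the extravasated group). The labels give no shared replicate numbers.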

Additional observations from a re-analysis of the deposited data

How the results depend on the processing

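The counts of called genes, 2355 higher and 3196 lower over all genes, were within 1.5 times under RLE factors, library totals, DESeq2, no filter and the title suffix term. They were 1015 and 714 with GC and length correction, 996 and 673 with the longest transcript, and 1204 and 1000 with GC correction alone. With 1 library left out they ranged from 545 to 2758 and from 1329 to 3541. The members called higher were 0 with each of the 3 corrections (edgeR; at an unadjusted p under 0.05, 1 with GC and length, 1 with GC alone and 0 with the longest transcript), and 0 to 13 with 1 library left out; the 0 is without extravasated library 2, with 3 at an unadjusted p under 0.05. The members called lower, Mdm4 included, were 7 with all libraries, 3 with GC and length correction and with GC correction alone, 2 with the longest transcript, and 3 to 14 with 1 library left out. The median log2 fold change over members was -0.19 and ranged from -0.18 to 0.18 with 1 library left out, the positive value being without non-extravasated library 1. Over all genes, the fits with 1 library left out called the fewest genes in each direction without extravasated library 2, followed by extravasated library 1. A call that ended in those fits is therefore not particular to the member. For the counts at an unadjusted p no share over all genes is given, so nothing is read from them.

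With 1 library left out, Cdkn1a ranged from -0.86 to 0.98, Ccng1 from -1.73 to 0.39, Zmat3 from -0.71 to 0.85 and Tnfrsf10b from -0.89 to 0.59; the positive ends are without non-extravasated library 1 and the negative ends without library 2, and all of these were called. Bax turned to -0.09 with GC and length correction and -0.12 with the longest transcript, and Bak1 to -0.03, -0.06 and, with GC correction alone, -0.03. Ccng1 and Zmat3, not called with all libraries, turned to 0.25 and 0.63 with GC and length correction. Mdm4 was at -1.47, -1.49 and -1.70 under these 3 corrections. The cause of these changes was not tested, beyond the corrections removing trends with transcript composition by construction. DESeq2 left all 30 members on the same side of the threshold, and RLE factors and no filter each ended the call of Trp53inp1, the title suffix term that of Bcl2, and library totals that of Plk3 (0.81, adjusted p = 0.0508), while library totals added Mdm2 (-1.24, adjusted p = 0.0334). With 2 libraries a group, single-gene calls rest on few degrees of freedom, and members under 10 counts per library allow no comparison.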

Other observations

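Over all genes tested in both fits, 23 of 12447 were called higher in extravasated cells without non-extravasated library 1 and lower without library 2 (edgeR, adjusted p under 0.05), as 4 members were. The others were chosen here after their values were seen. Among them were 3 genes known as targets of MAPK signalling: Etv5 stood at 29.9 and 0.463 CPM in non-extravasated libraries 1 and 2 and at 17.7 and 21.1 CPM in the extravasated libraries, Etv4 had no read in non-extravasated library 2 and 11.3 CPM in library 1, and Dusp6 stood at 119 and 50.4 CPM against 86.6 and 95.4 CPM. Inka2 (19.4 and 2.78 CPM in the non-extravasated libraries), the cytokine gene Lif (11.8 and 1.56 CPM), Sulf2 (89.1 and 31.7 CPM) and Tap1 (9.89 and 2.31 CPM) were also among the 23, as were the interferon-induced genes Bst2 (47.5 and 22.3 CPM) and Ifitm3 (32.1 and 10.1 CPM). In these genes the extravasated libraries lay between the non-extravasated ones, which follows from how the 23 were picked.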
